A study of Mus musculus with 4 samples.

Results

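In a dissociation of mouse collecting lymphatic vessels with adjoining tissue, 283 of 23666 barcodes that passed a filter on cell quality formed a group rich in the lysozyme transcript Lyz1, here called Lyz1-Ear2 cells (1.20%, exact 95% binomial interval 1.06% to 1.34%). They were selected on their own measured UMIs, the distinct captured molecules counted per gene and cell barcode. A barcode was kept with at least 1 Ptprc UMI, at least 2 Lyz1 UMIs and at least 1 UMI of Ear2, Dcstamp or Il1rn, with at most 3 C1qa UMIs, no Cd209d, Cd209f or Cd209b UMI and at most 2 Col1a1 UMIs. The filter on cell quality asked for 500 gene UMIs, 300 genes and under 15% mitochondrial UMIs and kept 23666 of 24046 barcodes. The study dissected vessels and adjoining tissue of C57BL/6J mice, 4 males and 4 females, at 12 to 14 weeks of age, for which the labels name no treatment or engineered allele. Vessels from 4 regions (popliteal, inguinal axillary, superficial cervical and mesenteric) were combined for each mouse, dispersed with papain, collagenase A and dispase, marked with oligonucleotide tags and pooled within each sex. The study's title concerns TRPV4, a calcium-permeable cation channel, and the contraction of these vessels. The 8 number suffixes of the barcodes carry no label for mouse or sex, so the matrix is a single pooled sample and no test across animals was possible. Sex was not assigned to any cell.

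Macrophages of adult tissues come from embryonic precursors and from blood monocytes that enter the tissue and change their genes of surface, enzyme and cytokine production as they settle. Perivascular resident macrophages typically carry the scavenger receptor Cd163, the hyaluronan receptor Lyve1, the folate receptor Folr2 and the chains of complement C1q, while cells that arrived recently keep the chemokine receptor Ccr2 and many lysozyme transcripts. Mice have a pair of lysozyme genes, of which Lyz2 is the common macrophage gene and Lyz1 is best known from Paneth cells of the gut. Ear2 encodes a secreted ribonuclease of the eosinophil-associated family, Dcstamp a membrane protein needed for macrophage fusion, and Il1rn the antagonist of the interleukin 1 receptor.

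The lysozyme pair lies side by side on the minus strand of chromosome 10 (GRCm38, GENCODE M21 positions): Lyz1 (ENSMUSG00000069515) from 117287797 to 117292868 and Lyz2 (ENSMUSG00000069516) from 117277331 to 117282321. Ear2 (ENSMUSG00000072596) lies on the plus strand of chromosome 14, from 44102654 to 44103534. Their upstream sequence is shown because the level of Lyz1 and Ear2 sets these cells apart by selection, while Lyz2, whose upstream sequence resembles that of Lyz1, was not used to select them. The RefSeq start of Lyz2 lies inside the GENCODE gene, so its window overlaps the positions above. Each sequence is the 250 bases before the transcription start, 5′ to 3′ on the gene's strand, from RefSeq (GRCm38.p6). For the lysozymes, capitals mark bases that differ between, or have no partner in, the aligned pair of windows, and for Ear2 they mark a match to the C/EBP motif.
Lyz1, chr10:117292869-117293118, minus strand: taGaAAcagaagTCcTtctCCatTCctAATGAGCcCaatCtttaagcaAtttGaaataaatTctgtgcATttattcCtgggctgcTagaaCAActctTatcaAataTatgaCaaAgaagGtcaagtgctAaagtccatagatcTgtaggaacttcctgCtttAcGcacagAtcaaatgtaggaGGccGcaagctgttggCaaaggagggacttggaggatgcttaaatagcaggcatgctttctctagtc
Lyz2, chr10:117282273-117282522, minus strand: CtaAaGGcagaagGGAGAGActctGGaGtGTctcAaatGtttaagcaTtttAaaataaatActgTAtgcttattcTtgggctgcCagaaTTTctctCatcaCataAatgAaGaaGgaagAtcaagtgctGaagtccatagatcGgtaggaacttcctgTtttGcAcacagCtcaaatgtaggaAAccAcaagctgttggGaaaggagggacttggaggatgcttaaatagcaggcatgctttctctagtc
Ear2, chr14:44102404-44102653, plus strand: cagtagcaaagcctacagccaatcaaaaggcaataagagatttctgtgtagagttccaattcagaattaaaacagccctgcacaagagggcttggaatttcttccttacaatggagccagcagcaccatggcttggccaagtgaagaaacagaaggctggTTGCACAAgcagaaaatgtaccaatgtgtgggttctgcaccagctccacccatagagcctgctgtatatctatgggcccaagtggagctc

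The Lyz1 and Lyz2 windows were identical at 205 of 240 bases aligned without a gap (85.4%), against 146 of 204 (71.6%) for the Lyz1 and Ear2 windows aligned the same way. The last 50 bases before the start were the same in Lyz1 and Lyz2. Motif matches were searched on both strands. The C/EBP motif TTGCNNAA matched once in the Lyz1 window, as TTAAGCAA from 209 bases before the start, and once in the Ear2 window, as TTGCACAA from 90 bases before it. It was not found in the Lyz2 window, and 9.57% of 32536 promoter windows of the same length held it. The PU.1 motif GAGGAA (in 23.4% of windows), the AP-1 motif TGANTCA (6.73%) and the TATA box motif TATAAA (12.3%) were found in none of the 3. Il1rn has 3 RefSeq windows on chromosome 2, and Dcstamp has none in the table used.

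The Lyz1-Ear2 cells held 2830094 gene UMIs in all, with 655 to 26615 UMIs per cell (median 10304) and a median of 2873 genes. They were set beside 5417 barcodes with at least 1 Adgre1 and at least 4 C1qa UMIs (C1qa-high macrophages, median 7735 UMIs), beside 121 barcodes with at least 1 Ly6c2 and at least 1 Plac8 UMI that were in neither group (Ly6c2-Plac8 cells, median 8829 UMIs), and beside all other 23383 barcodes. Of the 134 barcodes meeting the Ly6c2 and Plac8 condition, 2 were Lyz1-Ear2 cells and 11 were C1qa-high macrophages. UMIs were summed over the cells of a group and given as a share of that group's UMIs scaled to 1000000 (CPM). Intervals of levels are exact Poisson and those of ratios exact conditional binomial, at 95%, and all cover counting error only, since cells are not replicates. A gene with no UMI in Lyz1-Ear2 cells may stand at up to 1.06 CPM, the level of 3 UMIs. Of the barcode sequences, 44 occurred in 2 suffixes, always across suffixes 1 to 4 and 5 to 8, and 2 of these 44 belonged to Lyz1-Ear2 cells, with no sequence in common between them. No doublet caller was run. Genes of fibroblasts, endothelium, muscle, epithelium, lymphocytes, mast cells and Schwann cells summed to a median of 6 UMIs per Lyz1-Ear2 cell (0.0565%) and 4 per C1qa-high macrophage (0.0520%). The largest share of a cell's tag UMIs on a single tag had a median of 87.0% in Lyz1-Ear2 cells and 89.9% in C1qa-high macrophages.

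The comparison group meant to hold monocytes went against that name. Its UMIs included 45057 CPM of the immunoglobulin light chain Igkc, 2998 CPM of the plasma cell gene Jchain and 133 CPM of the T cell receptor gene Trbc2. Of its 121 barcodes, 71 had a UMI of at least 1 of 12 B, plasma, T, NK or plasmacytoid genes, and 55 had a Lyz2 UMI. Only 32 had at least 3 Lyz2 UMIs and none of the 12 genes. This subset, chosen after the data were seen and here called myeloid Ly6c2-Plac8 cells, is used below for levels in monocyte-like cells. It held 274215 UMIs in all, so a gene with no UMI there may stand at up to 10.9 CPM. A further set of 474 barcodes, also chosen after the data were seen, gives levels in dendritic cells. It had Flt3, Ptprc, at most 3 C1qa UMIs and at least 1 UMI of Cd209a, Xcr1 or Clec9a. Lyz1-Ear2 cells, C1qa-high macrophages and Ly6c2-Plac8 cells were left out of it. For background from free RNA, 261 B cells (at least 2 Cd79a and 1 Ms4a1 UMIs) and 7385 fibroblasts (at least 10 Col1a1 UMIs, no Ptprc UMI), named by these genes alone, are used.

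The label of monocyte-derived macrophages was matched by the markers in part only. Of 12 macrophage identity genes, 11 reached 10 CPM in the Lyz1-Ear2 cells. The receptor for colony stimulating factor 1, Csf1r, stood at 187 CPM (95% interval 172 to 204), against 13.1 in dendritic cells and 655 in C1qa-high macrophages. Against this, the Fc receptor gene Fcgr1 stood at 1.06 CPM (3 UMIs in 283 cells; 64.6 in C1qa-high macrophages) and the engulfment receptor gene Mertk at 15.9 CPM (226). Of 20 classical monocyte genes 13 reached 10 CPM, with a sum of 17194 CPM against 7338 in C1qa-high macrophages. The same sum was 23153 CPM in myeloid Ly6c2-Plac8 cells, 9198 in fibroblasts, 7774 in all other barcodes and 4580 in dendritic cells. Lyz2 made up 7832 CPM of the sum in Lyz1-Ear2 cells. Below 10 CPM were 3.53 CPM of Chil3 and 5.30 of Vcan, against 157 and 310.0 in myeloid Ly6c2-Plac8 cells, and Ly6c2, a gene of the comparison rule, stood at 5.65 CPM. Of 16 dendritic cell genes 12 reached 10 CPM, and 6 of 13 compared were at least 2-fold higher than in C1qa-high macrophages. Flt3, which chose the dendritic cells, stood at 5.30 CPM and Zbtb46 at 28.3, against 185 and 281 in dendritic cells. Of 11 neutrophil genes only Mmp9 (12.4 CPM) reached 10 CPM, S100a8, S100a9 and Cxcr2 had no UMI, and none of 6 eosinophil genes reached 10 CPM (Epx, Ear6 and Ccr3 had no UMI). The counts do not measure descent from monocytes, so the cells are named by their genes.

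The 4 selection genes are given as a description, since they chose the cells. Lyz1 stood at 3992, 5027 and 6515 CPM in Lyz1-Ear2 cells (lowest, median and highest suffix of 8), and at 54.3, 113 and 252 in C1qa-high macrophages. Every suffix was therefore far higher in the selected cells, as the rule requires. For Ear2 these values were 147, 398 and 458 CPM against 5.12, 14.2 and 27.6, for Dcstamp 382, 505 and 747 against 1.44, 5.47 and 8.58, and for Il1rn 183, 329 and 578 against 6.88, 13.5 and 32.9. Background levels of Lyz1 were 1.56 CPM in B cells and 2.43 in fibroblasts. Lyz2, which the rule did not use, stood at 5794, 7481 and 9957 CPM over the suffixes in Lyz1-Ear2 cells and at 3471, 3673 and 4241 in C1qa-high macrophages, a difference of 2.09-fold (2.06 to 2.12). The ranges did not overlap. The Lyz1 and Lyz2 transcripts (GENCODE M21) are 96.0% identical and share a run of 118 bases, so counting could move reads between the pair, and no source used here says how such reads were treated.

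**Figure D1:**
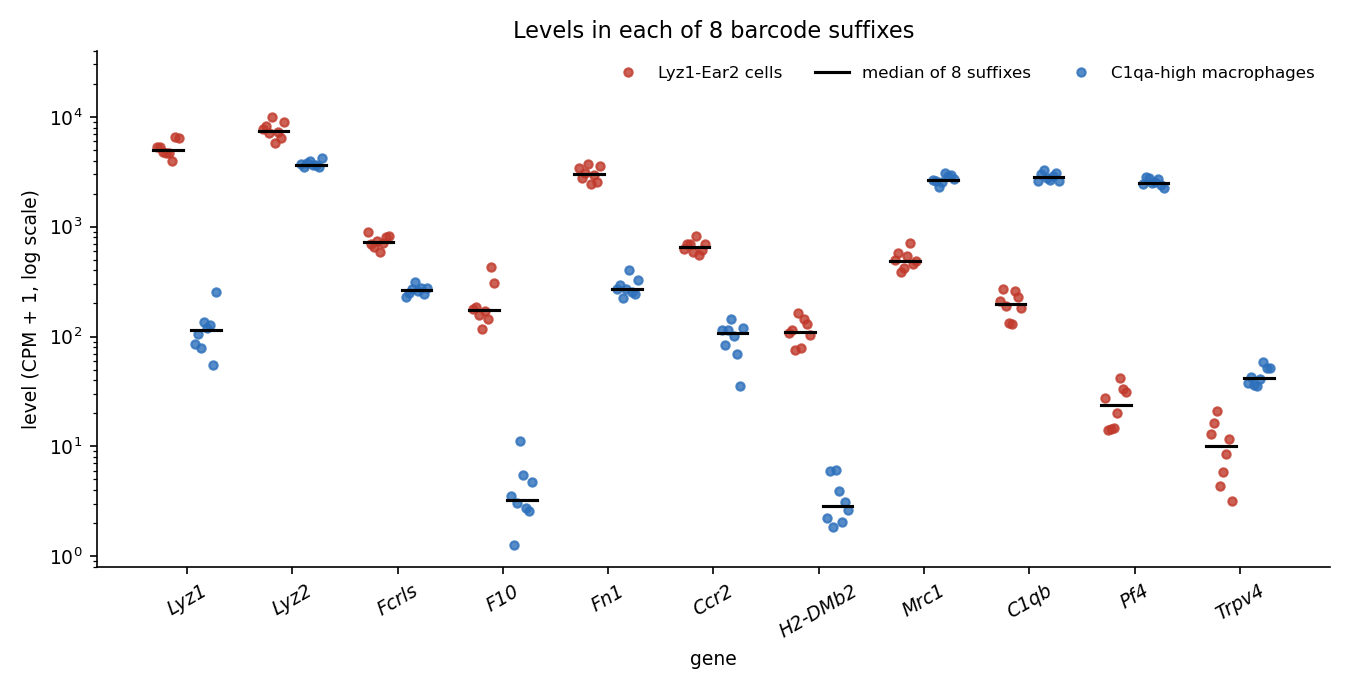
Levels (CPM + 1, log scale) of 11 genes in each of the 8 unlabelled barcode suffixes, for Lyz1-Ear2 cells (red) and C1qa-high macrophages (blue), with a bar at the median. The ranges of both groups lie apart for each of the 11 genes, including Lyz1, which the rule used, and Trpv4, at 2.16 to 20.1 CPM in Lyz1-Ear2 cells.

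Beside C1qa-high macrophages, 630 of 8753 genes at 10 CPM or more in either group were at least 2-fold higher in Lyz1-Ear2 cells (7.2%) and 1488 at least 2-fold lower (17%), with 5 CPM added to each level and the 13 genes of the selection rules left out. The median log2 ratio of the genes compared was -0.17. These shares are the background against which each gene list is read, and none carries a test. Of the 630 higher genes, 493 had suffix ranges in Lyz1-Ear2 cells that lay wholly above those in C1qa-high macrophages (78.3%), and of the 1488 lower genes 1265 lay wholly below (85.0%). These genes were called from sums of the same suffixes. The share with ranges apart over all 8753 genes is not given here, so these 2 shares have no background and are a description only. Asking C1qa-high macrophages for Ptprc and at most 2 Col1a1 UMIs too, as the rule asks of Lyz1-Ear2 cells, gave 635 higher and 1180 lower genes. The number compared there is not given here, so these 2 counts have no share beside them. Fibroblast transcripts moved with this comparison: all 6 of 6 fibroblast genes were lower in Lyz1-Ear2 cells, with summed levels over the suffixes of 209 to 487 CPM against 1849 to 2778 CPM. None of the 6 was at 0 in Lyz1-Ear2 cells, and their part in the other differences was not tested beyond that alternative.

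With 5 CPM added and among genes at 50 CPM or more, the highest ratios were those of F10, Adam8, Rab11fip1, Ltb4r1 and Tnip3. Ratios printed with a gene are of CPM with nothing added, which gives another order, with Ltb4r1 above F10. F10, which encodes coagulation factor X, stood at 116, 173 and 431 CPM as the lowest, median and highest suffix of Lyz1-Ear2 cells and at 0.277, 2.28 and 10.1 in C1qa-high macrophages. All 8 suffixes of the former lay above all 8 of the latter, and the ratio was 64.6-fold (53.9 to 77.7). F10 was also found in myeloid Ly6c2-Plac8 cells (128 CPM) but hardly in dendritic cells (0.166 CPM, 1 UMI). The membrane protease gene Adam8 stood at 207 against 5.39 CPM, a ratio of 38.3-fold (33.0 to 44.6), and the leukotriene B4 receptor gene Ltb4r1 at 136 against 2.01 CPM (68.0-fold, 54.1 to 86.2). Kcnn4, a calcium-activated potassium channel, stood at 167 against 5.61 CPM (29.8-fold, 25.6 to 34.8).

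Several of these genes were high in dendritic cells as well. Tnip3, an inhibitor of NF-kB signalling, stood at 1001 CPM in Lyz1-Ear2 cells, 48.4 in C1qa-high macrophages and 731 in dendritic cells. Rab11fip1, a regulator of vesicle recycling, stood at 494, 19.5 and 328 CPM in the same order. Malt1, a signalling protease, stood at 775, 40.3 and 410.5 CPM, and the adhesion receptor gene Cd226 at 273, 11.8 and 149 CPM. Plcb1, a phospholipase C, went the other way: 881 CPM in Lyz1-Ear2 cells, 9.28 in dendritic cells and 660.1 in myeloid Ly6c2-Plac8 cells. The other genes among the 12 highest were Net1 (154 against 3.67 CPM in C1qa-high macrophages), Chst11 (196 against 7.89) and H2-DMb2, described with antigen presentation.

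**Figure D2:**
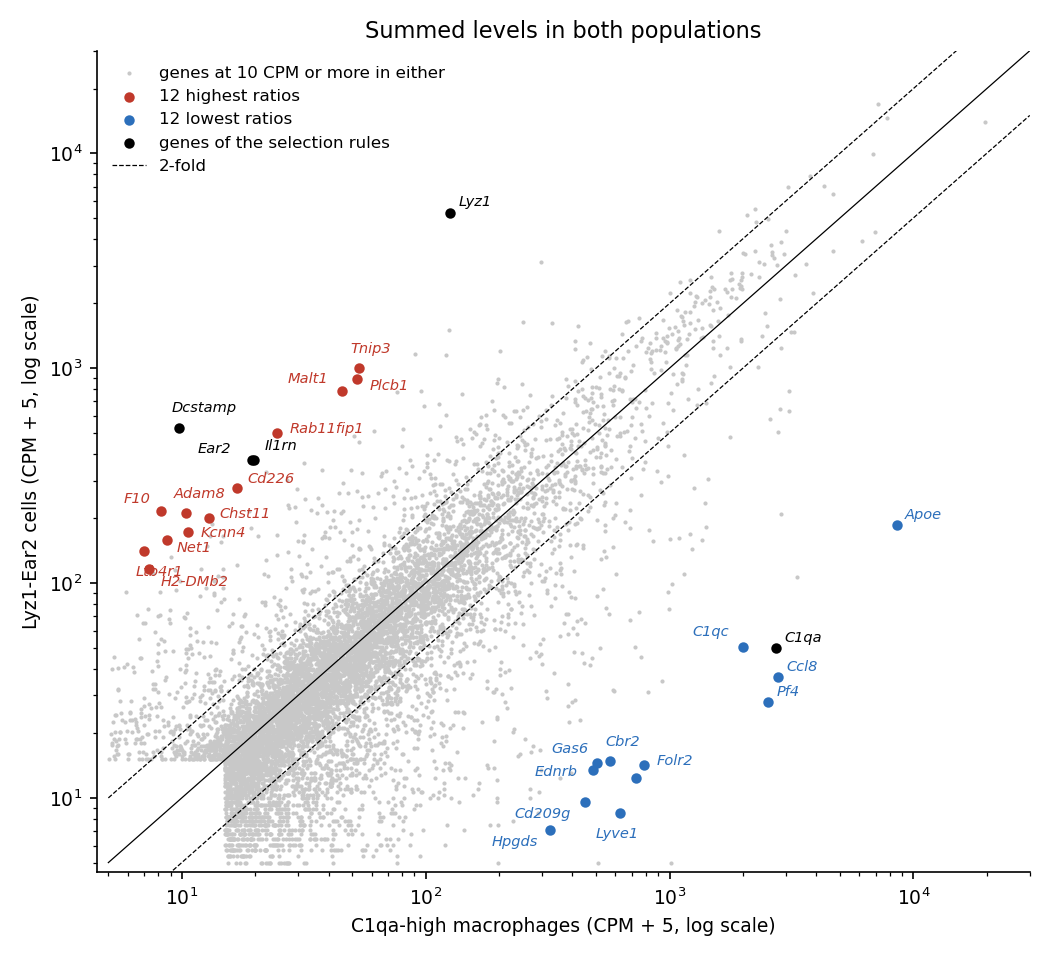
Summed level of each gene in C1qa-high macrophages (x) and Lyz1-Ear2 cells (y), both as CPM + 5 on log scales, with the 12 highest (red) and 12 lowest (blue) ratios coloured, most of them named, and 5 genes of the selection rules in black. Pf4 lies at 23.0 against 2536 CPM and F10 at 210.2 against 3.26 CPM, and the dashed lines mark a 2-fold ratio.

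Genes of resident perivascular macrophages made up the other end. Of 19 listed, 18 were at least 2-fold lower in Lyz1-Ear2 cells and 1 was higher, with a median log2 ratio of -4.78. The rule capped C1qa and barred Cd209d, Cd209f and Cd209b in Lyz1-Ear2 cells, while C1qa-high macrophages were chosen for C1qa. Levels of resident genes that go with these are therefore not independent of the selection, and are given as a description. The platelet factor 4 gene Pf4 stood at 13.1, 22.9 and 41.2 CPM over the suffixes in Lyz1-Ear2 cells and at 2256, 2511 and 2841 in C1qa-high macrophages, 110.4-fold (86.6 to 143) lower in the sums. That level lay near those of B cells (16.7 CPM) and fibroblasts (19.7), and the part of free RNA in it was not tested. Lyve1 stood at 0, 3.39 and 7.49 against 428, 636 and 829.9 CPM (176-fold, 95.9 to 368 lower). Folr2 stood at 9.19 against 782 CPM, Ccl8, a chemokine gene, at 31.4 against 2784, and Cd209g at 4.59 against 446. Background levels in B cells and fibroblasts were 5.21 and 8.53 CPM of Lyve1, 5.21 and 7.27 of Folr2, 43.7 and 93.9 of Ccl8 and 8.33 and 5.53 of Cd209g.

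Some resident genes stayed well above background. The mannose receptor gene Mrc1 stood at 389, 491 and 715 CPM over the suffixes, below the 2279, 2689 and 3113 of C1qa-high macrophages but above the 18.7 CPM of B cells. The transglutaminase gene F13a1 stood at 627 against 3073 CPM, and Cd163, the receptor for haptoglobin and haemoglobin, at 40.3 against 760.0 (4.68 in B cells). The complement genes C1qb and C1qc lie beside C1qa, which the rule capped, and stood at 204 and 45.6 CPM against 2865 and 1989. The single higher gene of the list was Fcrls, an Fc receptor-like gene, at 581, 728 and 888 CPM over the suffixes against 226, 263 and 313, a ratio of 2.83-fold (2.70 to 2.96). Fcrls was at 28.0 CPM in dendritic cells and had no UMI in the 32 myeloid Ly6c2-Plac8 cells. After thinning each cell to 2000 UMIs, 70.4% of 260 Lyz1-Ear2 cells (23 shallower cells left out) and 39.8% of 5357 C1qa-high macrophages (60 left out) had a Fcrls UMI, against 0.766% of 261 B cells. Without thinning the shares were 85.2% and 76.2%.

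The 12 lowest ratios also held genes outside that list, among them Apoe, Hpgds and Ednrb. Apoe, the apolipoprotein E gene, stood at 112, 195 and 266 CPM against 7295, 8647 and 9040.4 (47.0-fold, 43.1 to 51.4 lower). Hpgds, which makes prostaglandin D2, stood at 2.12 against 318 CPM (19.3 in B cells), and Ednrb, an endothelin receptor gene, at 8.48 against 479.9 (10.9 in B cells). On the list, Cbr2, a carbonyl reductase gene, stood at 9.89 against 565 CPM, and Gas6, a ligand of the Mertk receptor family, stood at 9.54 against 501. The insulin-like growth factor gene Igf1 stood at 8.13 against 390.4 CPM.

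Genes of classical monocytes were split. Of 15 listed genes compared with C1qa-high macrophages, 9 were at least 2-fold higher (background 7.2%), 2 were lower and 4 lay between, with a median log2 ratio of 1.31. The chemokine receptor Ccr2, through which monocytes leave the marrow, stood at 547, 659 and 826 CPM over the suffixes against 34.4, 107 and 143 (7.06-fold, 6.69 to 7.46), near the 631 CPM of myeloid Ly6c2-Plac8 cells. Fn1, the fibronectin gene, stood at 2426, 3007 and 3694 CPM against 222, 269 and 399 (10.7-fold, 10.4 to 10.9), and in myeloid Ly6c2-Plac8 cells at 310.0 CPM. Fibroblasts held 2376 CPM of Fn1, and B cells, used here for background, 135 CPM. Clec4e, a receptor for mycobacterial lipid, stood at 298 against 21.9 CPM and Cd44 at 1566 against 418. Emilin2 (139.6 against 138 CPM) and Msrb1 (72.4 against 66.5) differed little, and Mgst1 was lower (7.42 against 76.4). Of 9 non-classical monocyte genes 3 reached 10 CPM in either group, and none of these was at least 2-fold higher. Ace (5.30 CPM) and Pou2f2 (4.24) were lower than in C1qa-high macrophages (26.0 and 74.9), and Cd300e had no UMI.

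Antigen presentation genes were mostly higher. Of 12 compared, 7 were at least 2-fold higher than in C1qa-high macrophages, 1 was lower and 4 lay between (median log2 ratio 1.06). The class II gene H2-Ab1 stood at 4606, 5201 and 5585 CPM over the suffixes against 1651, 2134 and 2792, a ratio of 2.51-fold (2.46 to 2.55), and H2-Eb1 at 4791 against 2249 CPM. The ranges lay apart for both. H2-DMb2, which encodes a chain of the class II peptide-loading factor H2-DM, stood at 73.8, 109.8 and 163 CPM against 0.861, 1.87 and 5.04 (48.1-fold, 38.5 to 60.5). Its level was 80.1 CPM in dendritic cells and 7.29 in myeloid Ly6c2-Plac8 cells. The related gene H2-DMb1 had a smaller ratio (598 against 172 CPM), and counting could split reads between these related genes. Cd80, a costimulatory gene, stood at 309.5 against 60.6 CPM, whereas Cd86 (1238 against 1724) was not 2-fold different and Cd40 (30.7 against 79.2) was lower.

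Dendritic cell genes did not move together. Of 13 compared, 6 were at least 2-fold higher than in C1qa-high macrophages and 5 lower. Itgax, which encodes CD11c, stood at 70.7 against 2.24 CPM (31.5-fold, 24.7 to 40.3), with 42.3 in dendritic cells, and Cd24a at 184 against 8.28 CPM. Irf4 stood at 245 CPM, above C1qa-high macrophages (76.8) and dendritic cells (94.2). Clec10a (45.6 against 718 CPM), Mgl2 (105 against 596) and Irf8 (44.2 against 122) were lower. Flt3, Cd209a, Xcr1 and Clec9a chose the dendritic cells, so their levels there are no finding.

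Interleukin 1 genes differed by member. Besides Il1rn, which was used for selection, Il1b stood at 603, 1179.9 and 1809 CPM over the suffixes against 39.6, 92.7 and 153 in C1qa-high macrophages (13.5-fold, 12.8 to 14.1), and Il1a at 66.8 against 11.2 CPM. Of the 13 genes of the system compared, 3 were at least 2-fold higher, 2 lower and 8 between. The inflammasome sensor genes Nlrp3 (345 against 369.9 CPM) and Nlrc4 (20.5 against 64.3) differed, the former being within 2-fold and the latter lower. Pycard, the inflammasome adaptor, was higher (159.7 against 62.8), Casp4 lower (234 against 539) and Gsdmd, the pore-forming effector, near equal (34.3 against 34.6). Il36g was not analysed here.

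Other cytokine genes went both ways, with 8 of 26 at least 2-fold higher and 7 lower. Areg, an epidermal growth factor family ligand, stood at 91.6, 210.2 and 384 CPM over the suffixes against 3.58, 13.3 and 43.5 (15.3-fold, 13.6 to 17.1), and at 64.5 in dendritic cells. Il6 stood at 206 against 30.7 CPM, Ccl9 at 1432 against 634 and Cxcl10 at 599.6 against 202. Lower were Ccl12 (2.47 against 179 CPM), Ccl7 (178 against 1406) and Cxcl13 (1.41 against 33.7). Ccl3 (320.5 against 296), Tgfb1 (337 against 407) and Cxcl2 (7061 against 4299) lay within 2-fold, with overlapping suffix ranges. Tnf stood at 811 against 204 CPM. Of 13 genes that enzymatic dispersal is known to raise, none was at least 2-fold higher than in C1qa-high macrophages and 4 were lower. Among the lower ones were Jun (778 against 3089 CPM) and Ier3 (154 against 1355). Beside Ly6c2-Plac8 cells 4 of the 13 were higher and none lower, and beside all other barcodes none was higher and 4 were lower. The part of dispersal in the cytokine levels was not tested.

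Protease and matrix genes went both ways. Of 18 compared, 6 were at least 2-fold higher and 7 lower. Higher were Mmp12, the macrophage elastase (112 against 7.01 CPM), and Plaur, the urokinase receptor gene (476 against 45.9, 10.4-fold, 9.68 to 11.1), besides Adam8 and Fn1. The Mmp12 call rests on few cells: 10 cells held 77.8% of its UMIs. Without cells of 3 or more other-lineage UMIs (34 Lyz1-Ear2 cells left) the log2 ratio of Mmp12 was 0.69 in place of 3.28, under 2-fold. Mmp19 (225 against 22.2 CPM) was higher as well. Lower were Mmp9 (12.4 against 271 CPM), the cathepsin gene Ctsl (62.5 against 683), and Tgfbi (251 against 756). The urokinase gene Plau itself was near equal (90.5 against 98.5 CPM).

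Lipid genes showed opposite extremes. Lpl, which encodes lipoprotein lipase, stood at 1097, 1643 and 2048 CPM over the suffixes against 83.3, 124 and 184 (12.5-fold in the sums), while Apoe was far lower, as given above. Abcg1 was higher (57.9 against 12.7 CPM) and Abca1, the other main cholesterol exporter gene, lower (80.9 against 388). Trem2 (2.83 against 42.9 CPM), Cd63 (36.4 against 467) and the fatty acid receptor gene Cd36 (328 against 887) were lower, and Cd9 (60.1 against 45.6) and Lipa (152 against 125) lay within 2-fold. In all 2 of 13 lipid genes were higher and 7 lower.

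Retnla, which encodes the secreted protein RELM-alpha of alternatively activated macrophages, stood at 2912, 10368 and 15069 CPM over the suffixes in Lyz1-Ear2 cells and 4904, 7094 and 9448 in C1qa-high macrophages. These ranges overlapped. In B cells, fibroblasts and dendritic cells Retnla stood at 60.4, 56.3 and 117 CPM. Of 11 alternative activation genes compared, 2 were at least 2-fold higher and 4 lower. Arg1, the classic marker of this state, was at 2.12 CPM.

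Growth factor receptor genes differed by factor. The subunits of the receptor for granulocyte-macrophage colony stimulating factor were higher, Csf2ra at 359.9, 476 and 560.0 CPM against 109.5, 135 and 202 (3.12-fold, 2.94 to 3.31) and Csf2rb at 169 against 33.5 CPM (5.03-fold, 4.53 to 5.58). Csf1r was 3.50-fold (3.21 to 3.82) lower, and Csf3r, the granulocyte factor receptor, stood at 7.42 against 77.9 CPM. Among 15 receptor genes 2 were higher and 6 lower. Among 26 transcription factor genes 9 were at least 2-fold higher and 7 lower. Maf (30.0 against 925 CPM, 30.8-fold, 24.9 to 38.6) was lower. Pparg (152 against 25.1 CPM), Bhlhe40 (329.7 against 32.6), Batf3 (188 against 44.2), Mitf (549.8 against 214) and Runx3 (63.2 against 3.86) were higher. Cebpb, the gene of a C/EBP factor, was near equal (1065 against 959).

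**Figure D3:**
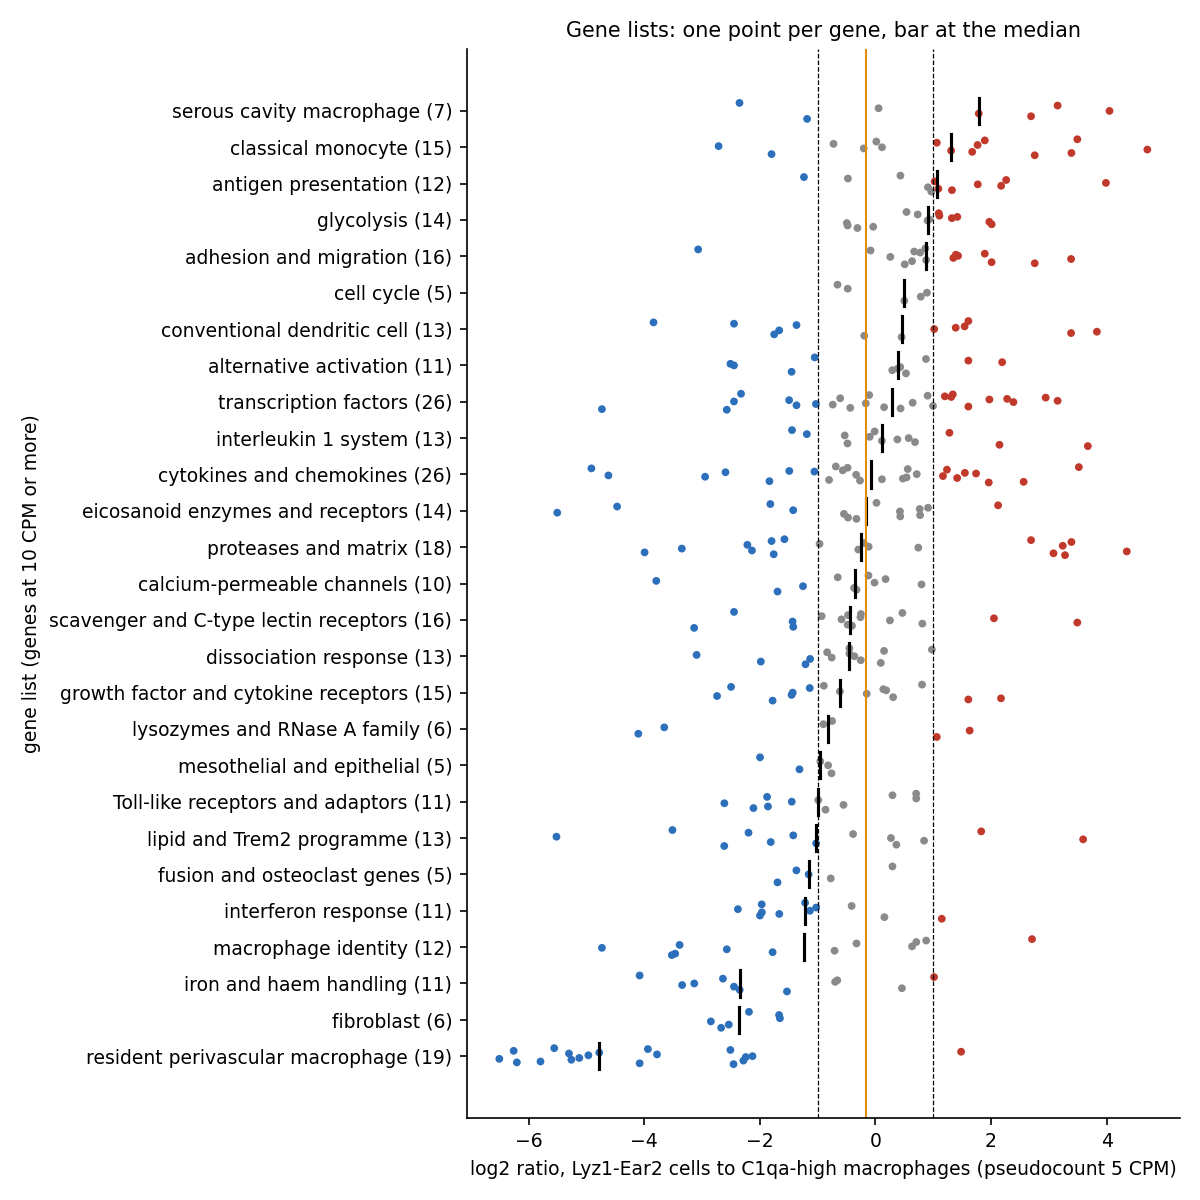
Log2 ratio of Lyz1-Ear2 cells to C1qa-high macrophages for each gene of the 27 lists with at least 5 genes at 10 CPM or more, with 5 CPM added, a bar at each list's median and an orange line at the median of all genes compared (-0.17). Resident perivascular macrophage genes lie lowest, at a median of -4.78, serous cavity macrophage genes lie highest, at 1.79, and classical monocyte and antigen presentation genes have medians of 1.31 and 1.06.

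Of 7 serous cavity macrophage genes compared, 4 were at least 2-fold higher than in C1qa-high macrophages and 2 lower, with a median log2 ratio of 1.79 and sums over the 14 listed genes of 688 against 139 CPM. The same sum was 649 CPM in fibroblasts, 559 in all other barcodes, 421 in dendritic cells, 354 in myeloid Ly6c2-Plac8 cells and 162 in B cells. Beside all other barcodes 5 of 11 were higher and 6 lower (median log2 ratio -1.40). Cd226 and Bhlhe40, both given above, are among the higher ones, as are Serpinb2 (35.7 against 1.29 CPM) and F5, the coagulation factor V gene (15.5 against 0.949). The defining cavity factor gene Gata6 stood at 2.47 CPM (fibroblasts 94.2) and Prg4 had no UMI. Of 8 alveolar genes only Pparg and Plet1 (11.0 CPM) reached 10 CPM. Among fusion genes other than Dcstamp, none of 5 compared was higher. Ctsk (4.95 against 27.2 CPM) and Tnfrsf11a (23.0 against 67.1), the receptor for the osteoclast factor RANKL, were lower, and Ocstamp, a related fusion gene, was at 3.18 CPM. Of the other ribonuclease genes, Rnase4 (17.7 against 384 CPM) and Ang (0.707 against 66.8) were lower and Rnase6 (48.4 against 12.2) higher, while Ear1 stood at 1.06 CPM and Ear6, Ear10 and Ear14 had no UMI. Since members of this family are close copies, counting could split or drop their reads.

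Glycolysis genes were higher in 6 of 14 and lower in none (the glucose transporter gene Slc2a1 at 34.6 against 4.83 CPM, and Pfkp at 319 against 77.8). Adhesion and migration genes were higher in 7 of 16 and lower in 1, S1pr1 (2.83 against 60.6 CPM). Iron and haem genes were lower in 7 of 11, among them Trf (68.5 against 741 CPM) and Slc40a1, the iron exporter, with no UMI against 20.4 CPM. Interferon response genes were lower in 8 of 11 (Oasl2 at 8.83 against 66.9 CPM) and higher in 1, Isg15 (354 against 157), whose suffix ranges overlapped. Toll-like receptor genes were higher in none and lower in 5 of 11, with Tlr7 at 14.1 against 112 CPM and Tlr4 at 17.0 against 89.8. Scavenger and lectin receptor genes were higher in 2 of 16, Clec4e and Clec4b1 (224 against 50.4 CPM), and lower in 4, such as Msr1 (3.53 against 70.0). Clec7a and Mx1 were not analysed here. Eicosanoid genes were higher in 1 of 14, the prostaglandin receptor gene Ptger2 (29.0 against 2.80 CPM), and lower in 4. Of these, Ltc4s, the leukotriene C4 synthase gene, stood at 8.48 against 293 CPM. Markers of 2 other cell types were higher. Of 6 innate lymphoid genes the interleukin receptor genes Il7r (65.0 against 2.98 CPM) and Il1rl1 (66.4 against 13.2) were higher while Ncr1, Klrb1c and Gzma had no UMI, and of 4 Schwann cell genes 2 were higher, one being the myelin gene Mbp (152 against 26.4), while the defining gene Sox10 stood at 1.41 CPM. The summed levels over the suffixes were 105 to 190.5 against 11.0 to 31.9 CPM for the innate lymphoid list and 122 to 754 against 20.5 to 43.0 for the Schwann cell list, and the part of such cells was not tested. None of 5 cell cycle genes was 2-fold different (Mki67 at 38.2 against 25.5 CPM).

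Trpv4, the channel of the study's title, stood at 10.2 CPM (95% interval 6.86 to 14.7, 29 UMIs) in Lyz1-Ear2 cells, with 2.16, 9.13 and 20.1 CPM as the lowest, median and highest suffix. C1qa-high macrophages held 34.6, 40.9 and 58.0 CPM over the suffixes, which did not overlap, and 44.3 CPM in the sum, 4.32-fold (3.00 to 6.47) higher. Background levels were 1.56 CPM in B cells and 5.30 in fibroblasts, and dendritic cells held 1.49. After thinning to 2000 UMIs, 2.69% of Lyz1-Ear2 cells, 8.81% of C1qa-high macrophages, 0.383% of B cells and 1.05% of fibroblasts had a Trpv4 UMI. Of 10 calcium channel genes compared, none was at least 2-fold higher and 3 were lower: Trpv4, Trpm7 (91.5 against 225 CPM) and the ATP-gated channel gene P2rx7 (8.83 against 186). The stretch-gated channel gene Piezo1 stood at 124 against 69.2 CPM and Piezo2 had no UMI in Lyz1-Ear2 cells.

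Beside Ly6c2-Plac8 cells, 853 of 9345 genes were at least 2-fold higher in Lyz1-Ear2 cells (9.13%) and 1971 at least 2-fold lower (21.1%), with a median log2 ratio of -0.28. The lowest ratios were immunoglobulin genes, Igkc first (16.6 against 45057 CPM) and then Ighg3, Jchain, Ighm and Mzb1. Beside the 32 myeloid Ly6c2-Plac8 cells the lower genes numbered 1169, but the number of genes compared is not given here, so this count has no share beside it. The highest ratios were Retnla (9891 against 53.5 CPM), Fcrls (745 against 3.19), the potassium channel gene Kcnq1 (244 against 1.60) and Areg (211 against 3.19). Aldh1a2, which makes retinoic acid, stood at 175 against 2.40 CPM, and at 14.2 in C1qa-high macrophages. In the 32 myeloid cells Fcrls, Kcnq1, Aldh1a2 and Mmp12 had no UMI (each may stand at up to 10.9 CPM), and Retnla stood at 58.3 CPM. Mmp12 had a UMI in only 36 of the Lyz1-Ear2 cells. Egr3, an early response factor, stood at 516 against 21.9 CPM in the myeloid cells and 147 in C1qa-high macrophages. Genes higher in the myeloid cells included Thbs1 (988 against 54.8 CPM), Gpr141 (321 against 8.83) and Apoe (1072 against 182).

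Beside all other barcodes, 848 of 9714 genes were at least 2-fold higher (8.73%) and 2365 at least 2-fold lower (24.3%), with a median log2 ratio of -0.24. The highest ratios, after F10, were Clec4e (298 against 13.5 CPM), the signalling regulator gene Rgs1 (779 against 43.8) and Kcnq1 (244 against 10.8). Aqp9, an aquaporin gene, stood at 9.61, 120.5 and 143 CPM as the lowest, median and highest suffix, and at 2.88 CPM in the other barcodes. Olr1, which encodes the receptor for oxidised low-density lipoprotein LOX-1, stood at 13.1, 119.8 and 179 CPM over the suffixes and at 2.63 in the others. For both genes, the lowest suffix stood far under the median. Pilra, an inhibitory receptor gene, stood at 143 against 5.50 CPM and Chn2 at 359 against 23.3. The lowest ratios were genes of stromal cells, led by Rhoj (13.8 against 1130.0 CPM), Ebf1 (7.42 against 739.7) and Sparc (71.4 against 3937). The cap on Col1a1 had removed barcodes with stromal RNA from the selected cells only.

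Within the Lyz1-Ear2 cells, 206 of 283 had an Ear2 UMI, 211 a Dcstamp UMI and 196 an Il1rn UMI, and 112 had all of them. Only Ear2 was found in 21 cells, only Dcstamp in 29 and only Il1rn in 15. Cells without an Ear2 UMI were shallower, with a median of 5652 UMIs against 10998, and the part of depth in a missing Ear2 UMI was not tested. Retnla varied most among the cells relative to counting error: its 10th percentile, median and 90th percentile per cell were 484, 5818 and 21330.5 CPM. Retnla stood at 11361 CPM in cells with Ear2 and 3899 CPM in cells without, a ratio of 2.91 (2.79 to 3.05, counting error only). In all, 10 cells held 19.1% of its UMIs. Cells without Ear2 met the rule only through Dcstamp or Il1rn, so every split by Ear2 here compares ways of being selected. The 21 cells with Ear2 alone held 16008 CPM of Retnla and 299 CPM of Il1b, and the 15 with Il1rn alone held 1308 and 1610.5 CPM.

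Mmp12 came from few cells. It had a UMI in 36 of 283 cells (12.7%), and 10 cells held 77.8% of its UMIs. It stood at 77.0 CPM in cells with Ear2 and 253 CPM in cells without. Ccl4 was found in 56.5% of the cells and stood at 1166 CPM with Ear2 and 1171 without, and Ccl7, in 44.5% of them, had 58.3% of its UMIs in 10 cells. Cst3, the cystatin C gene, stood at 1286 CPM with Ear2 and 2177 without, and 34.7% of its UMIs lay in 10 cells. Pmp22, a membrane protein gene, was found in 43.1% of cells, at 153 and 87.9 CPM with and without Ear2. Malat1, a nuclear RNA, stood at 13329 and 16678 CPM. The remaining genes of the 12 with the largest variance were Cxcl2, Ccl2, Lyz2, Tmsb4x and Cd74, and of these Cd74, the class II invariant chain, differed least by Ear2 (14652 and 14260.3 CPM).

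**Figure D4:**
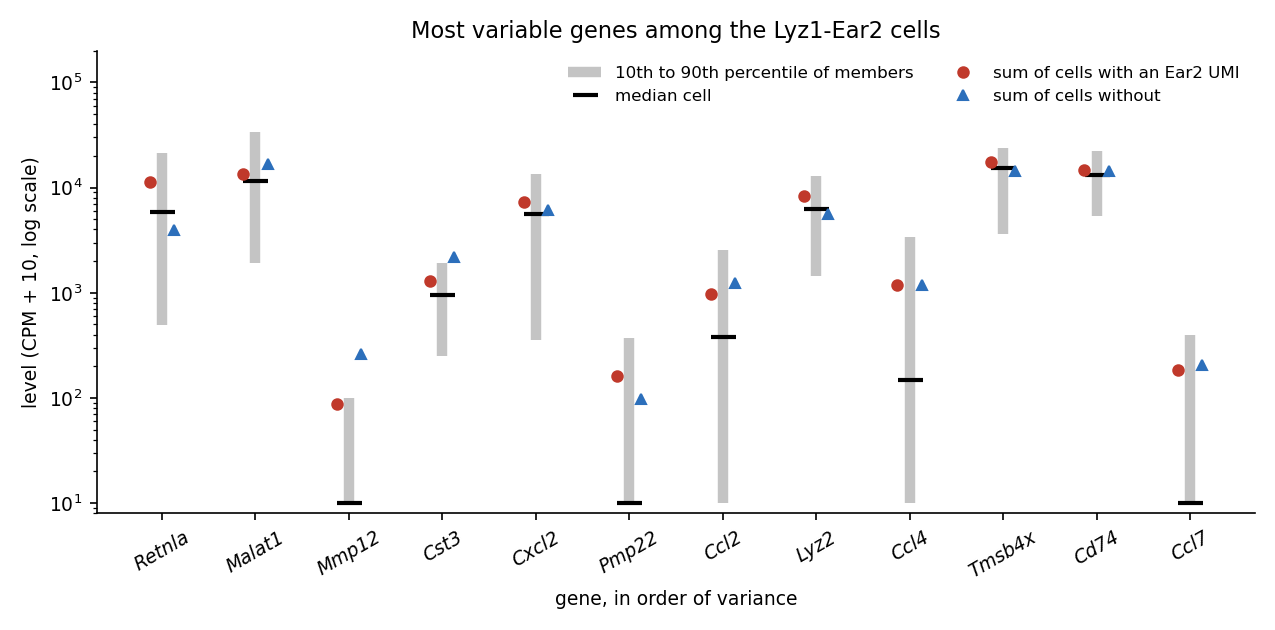
The 12 genes at 100 CPM or more with the largest variance among the 283 Lyz1-Ear2 cells, relative to counting error, as CPM + 10 on a log scale. Grey bars run from the 10th to the 90th percentile of single cells with the median as a black dash, and points give the sums of the 206 cells with an Ear2 UMI (red) and the 77 without (blue). Retnla is higher with Ear2 (11361 against 3899 CPM) and Mmp12 lower (77.0 against 253 CPM). Ear2, by which the cells are split, was also used to select them.

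The Lyz1 threshold lay where the number of barcodes per Lyz1 count was still falling. Among barcodes that met every other condition, 203 had no Lyz1 UMI and 41 had 1, just outside the rule. Within the rule, 19 had 2, 11 had 3, 37 had 4 to 9 and 216 had 10 or more. The groups at 4 to 9 and at 10 or more join several Lyz1 counts, so their sizes do not compare with the others. The 41 barcodes with 1 Lyz1 UMI stood at 364 CPM of Fcrls, 1779 of Fn1 and 66.2 of Flt3, and the 30 members with 2 or 3 at 285, 1380.5 and 61.9. Members with 10 or more stood at 799 CPM of Fcrls, 3234 of Fn1 and 1.61 of Flt3. The members nearest the threshold were thus closer to the barcodes just outside than to the other members, and they were also shallow, with a median of 2287 UMIs. On the C1qa side, 10 barcodes with 4 or 5 C1qa UMIs stood at 669 CPM of Fcrls and 5409 of Lyz1, against 783 and 5658 in the 93 members with 1 to 3. A further 85 with 6 or more C1qa UMIs stood at 713 CPM of Pf4, against 32.2 in those 93 members.

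The exclusion of Cd209 genes removed cells of similar content. In all 104 barcodes met every condition but had a UMI of Cd209d, Cd209f or Cd209b, and stood at 4775 CPM of Lyz1, 341 of Ear2, 665 of Fcrls, 155 of F10 and 26.4 of Pf4. The members stood at 5293, 370.3, 745, 210.2 and 23.0 CPM. With these barcodes included the group would number 387. The 53 barcodes that lacked Ear2, Dcstamp and Il1rn but met the rest differed more, at 57.3 CPM of Fcrls and 176 of Flt3.

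**Figure D5:**
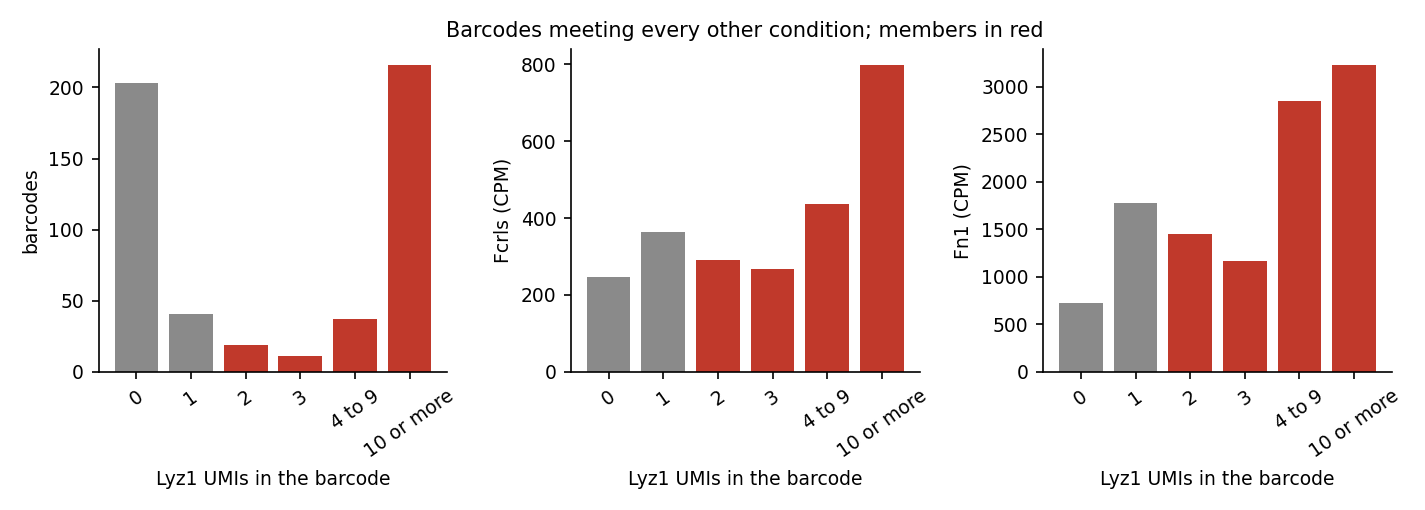
Number of barcodes, Fcrls level and Fn1 level by the number of Lyz1 UMIs, among barcodes that met every other condition, with members in red. Counts are 203, 41, 19 and 11 at 0, 1, 2 and 3 Lyz1 UMIs. The bars at 4 to 9 and at 10 or more join several Lyz1 counts, and at 10 or more (216 barcodes) Fcrls stands at 799 CPM.

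The Lyz1-Ear2 cells came from every suffix. Their number ran from 23 to 45 per suffix with a median of 36, or 0.707%, 1.33% and 1.59% of passing barcodes. In suffixes 1 to 4 they made up 1.46%, 1.43%, 1.59% and 1.42%, and in suffixes 5 to 8 0.707%, 0.933%, 0.980% and 1.24%. The former 4 lay above the latter 4, but the binomial intervals of the highest of the latter (0.891% to 1.69%) and the lowest of the former (0.976% to 1.98%) overlapped. For every 100 C1qa-high macrophages there were 9.22, 8.82, 6.94 and 6.46 of them in suffixes 1 to 4 and 2.47, 4.09, 3.72 and 4.66 in suffixes 5 to 8. No barcode sequence recurred within either set of 4 suffixes and both used the same 4 main tags. What the sets stand for is not given by the labels, no condition can be assigned to either, and shares of cells also depend on dissection and dispersal.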

How the data were processed

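Gene and tag UMIs of pooled single cells from 8 mice were analysed. The authors' deposited matrix holds raw UMI counts per gene and barcode, and per the file headers Cell Ranger 7.1.0 produced them. Also named in the submitters' processing notes are Seurat 4.3.0.1 and the build mm10; the annotation used for counting is not named in these sources. From the counts, cells were filtered and chosen as the report states, UMIs were summed per group, and ratios were formed after adding 5 CPM, among genes at 10 CPM or more in either group. A gene was called higher or lower at a ratio of 2. No test was run, since no map from barcodes to mice is used here. Intervals are at 95% and cover counting error only. No doublet caller was run. The ratio script was tested on simulated data.

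The members and gene lists were chosen with earlier results of these data known. Named genes were the selection genes, up to 6 of each list with the largest and up to 3 with the smallest absolute ratio, its defining markers at or near 0, the 12 highest and 12 lowest ratios of each comparison at 50 CPM or more, the 12 most variable genes at 100 CPM or more, and Trpv4. Alternatives changed the selection, depth, scaling, weighting, pseudocount and floor. Python 3.11.15, numpy 2.4.6, scipy 1.17.1, pandas 2.3.3 and matplotlib 3.10.9 were used. Some genes that this rule chose are not reported here.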

Additional observations from a re-analysis of the deposited data

Results flagged for a closer look

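Among 43 genes examined over the 8 suffixes in Lyz1-Ear2 cells, 2 had a single suffix standing far from the others, and chance flags about 1 in 20 such groups. Mmp12 stood at 391.191 CPM in suffix 4 and between 38.6 and 154 CPM in the others. Pmp22 stood at 398.451 CPM in suffix 7 and between 67.3 and 154 CPM in the others. Few cells held most Mmp12 UMIs, as given above.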

How the results depend on the processing

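Of 146 alternative values for the number of Lyz1-Ear2 cells and the counts of genes past 2-fold, 134 stayed within 1.5 times the reported count and 12 moved. With 20 CPM added in place of 5, 388 genes were higher and 748 lower than in C1qa-high macrophages, 542 higher and 878 lower than in Ly6c2-Plac8 cells, and 1291 lower than in all other barcodes. Among genes at 50 CPM or more, 409 were higher and 666 lower than in C1qa-high macrophages, 697 lower than in Ly6c2-Plac8 cells and 918 lower than in all others; this floor compares fewer genes. Without cells holding 3 or more UMIs of other lineages, 34 Lyz1-Ear2 cells were left and 1854 genes were higher than in Ly6c2-Plac8 cells. The same cut applied to the Ly6c2-Plac8 cells, of which 112 of 121 held that many. Few cells were thus left in both groups, and the number of genes compared is not given here. Beside the myeloid Ly6c2-Plac8 cells, a set chosen after seeing the data, 1169 genes were lower, with the number compared not given here. The cause of the other moves was not tested.

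Leaving out each suffix in turn gave 238 to 260 cells. It gave 624 to 639 higher and 1448 to 1517 lower genes beside C1qa-high macrophages, 826 to 907 and 1938 to 2079 beside Ly6c2-Plac8 cells, and 837 to 873 and 2359 to 2403 beside all others. Of 666 recomputed ratios of 37 genes, 474 stayed within the counting interval of the reported ratio and 192 moved outside it. Change of sign was examined only for the 558 values of genes past 2-fold. None of these changed sign, and 556 stayed past 2-fold. The exceptions were Mmp12 and Lyz2. Mmp12 had a log2 ratio of 0.69 (3.28 as reported) without cells of 3 or more other-lineage UMIs, which left 34 Lyz1-Ear2 cells. Lyz2 had 0.88 (1.06) from the mean of each cell's CPM. No paired analysis was possible because the barcodes carry no label for mouse and no result comes from a test. At 283 cells, genes below 10 CPM in both groups were not compared.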
